A study of Arabidopsis thaliana with 66 samples.

Results

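Cytochrome P450 genes were followed across flowers, floral organs, pedicels and pollen of Arabidopsis thaliana. The members are the probe sets (the sets of short probes that each measure 1 transcript) that pair with a single gene whose symbol has the form CYP, a number, letters, a number. They are 22 of the 22746 probe sets other than controls, 1 for each of 22 genes. The label of a whole family goes further than the annotation allows: RefSeq's table for the TAIR10.1 assembly holds 225 symbols of this form, all 22 members among them. By clan, the members are 21 genes of the CYP71 clan and 1 of the CYP51 clan. Of the former, 18 belong to the subfamily CYP71B, and the others are CYP78A9, CYP79A2 and CYP84A4. The CYP51 clan is represented by CYP51G2. What follows therefore describes mainly CYP71B genes.

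Cytochromes P450 are haem-containing monooxygenases, in plants mostly anchored in the endoplasmic reticulum, which insert an oxygen atom into small molecules with electrons passed on from NADPH by a reductase. Related P450 families are grouped into clans, of which the CYP71 clan is the largest in plants and contributes to phenylpropanoids, terpenoids, glucosinolates and other specialised compounds, whereas CYP51 enzymes remove a methyl group from sterol precursors. In flowers, P450s take part in making and oxidising scent compounds, in the chemistry of the pollen wall and the cuticle, and in the metabolism of growth regulators.

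The signal was measured in 66 samples, each on an array of its own, in 22 groups of 3. In wild-type Col-0, flowers were collected whole at stages 9, 10/11, 12 and 15, and at the last 2 of these stages they were also dissected into the 4 floral organs (sepals, petals, stamens, carpels). Stage 15 pedicels (the flower stalks) and mature pollen came from Col-0 as well. At stage 12 the bud is closed and at stage 15 the flower is open. These plants and the mutants grew on soil in continuous light at 23 °C, with a relative humidity of 65% where it is given, which is not the case for pollen. Further Col-0 flowers, with no stage given, came from plants kept on soil in long days at 20 °C. The 7 mutants carry their alleles in Col-0, and their flowers were taken at the equivalent of stage 12. In clv3-7 the meristem is enlarged and the flower has extra organs and a gynoecium of many carpels. In lfy-12 leaf-like structures with some shoot traits replace the flowers. In ap1-15 the whorls of sepals and petals are altered and secondary flowers form. The ap2-6 flowers have no sepals or petals and bear carpel-like structures in the sepal positions. In ap3-6 petals and stamens are missing. In ag-12 sepals and petals replace the stamens and carpels, and the flower is indeterminate. In ufo-1 the whorls of petals and stamens hold filamentous organs. The mutants thus differ from the wild type in the organs they have. In such bulk samples fewer cells of a kind and less RNA per cell cannot be told apart. The labels do not say how many plants a sample pools, and p-values measure only the spread between these samples.

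Values are signal intensities on a linear scale, which can be compared between samples for 1 gene but not between genes. A signal of 22.61, the 40th percentile of all values, served as the floor. The lowest correlation between replicate arrays was 0.9586 in pollen and 0.9859 elsewhere. Pollen markers were as bright as 11768 in pollen (PLIM2a), the carpel marker CES reached 759 in stage 12 carpels, and the green-tissue marker RCA averaged 3844 in pedicels and 31.7 in pollen. The pollen marker SETH5 did not stand out in pollen. ATVEX1, another pollen marker, averaged 1098 in pollen but 1961 in stage 12 stamens. The green-tissue marker PORB averaged 1405 in pedicels and 371 in stage 12 sepals. In stage 15 sepals it averaged only 42.9, close to the 34.7 of pollen and below the 151 of stage 15 petals. Among the other carpel markers, BAN averaged 3.48 in stage 12 carpels, below the floor, and 265 in stage 15 carpels. INO averaged 167 and 95.6 at these stages. SPT averaged 123 in stage 12 carpels but 51.3 in stage 15 carpels, close to the 41.9 of stage 15 petals. Of the 7 mutated genes only CLV3 and UFO have a single-gene probe set. In stage 12 wild-type flowers and in the corresponding mutant the means were 1.16 and 0.889 for CLV3 and 1.41 and 0.968 for UFO, all below the floor, so they do not check the genotypes.

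Of the 22 members, 15 were tested, because in at least 1 group all 3 arrays lay above the floor. A gene that passed this filter only through the group where it is bright had to differ between groups, so its contrast between groups is given as a description of size and not as support for the family. The other 7 were not tested. CYP71B16, CYP71B21, CYP71B25, CYP71B29, CYP71B36 and CYP79A2 were above the floor on none of the 66 arrays. CYP79A2, which converts phenylalanine to phenylacetaldoxime on the way to benzylglucosinolate, reached 6.14 on its brightest array. The brightest array of the 5 CYP71B genes ranged from 6.24 for CYP71B21 to 19.1 for CYP71B25. CYP51G2, annotated as a transcribed pseudogene in RefSeq, read 41.4, 21.2 and 33.8 on the pollen arrays and was below the floor on all others. Just inside the filter, CYP71B5 read 29.99, 22.9 and 25.6 in stage 15 pedicels and was below the floor everywhere else.

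Among the 10 dissected tissues (sepals, petals, stamens and carpels at both stages, pedicels and pollen), 5 tested genes were brightest in stage 15 sepals. These were CYP71B6, CYP71B23, CYP71B24, CYP71B26 and CYP71B28. Stage 15 petals held the maximum of CYP71B27, CYP71B31 and CYP71B38, and stage 15 pedicels that of CYP71B5, CYP71B22 and CYP84A4. CYP78A9 was brightest in stage 15 stamens, CYP71B34 in stage 15 carpels, CYP71B35 in stage 12 sepals and CYP71B37 in stage 12 carpels. None of the 15 had its maximum in pollen, whereas the untested CYP51G2 and CYP71B25 did, the latter below the floor. The share of all tested probe sets brightest in each tissue was not computed. These counts are thus a description and no result about P450 genes.

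**Figure D1:**
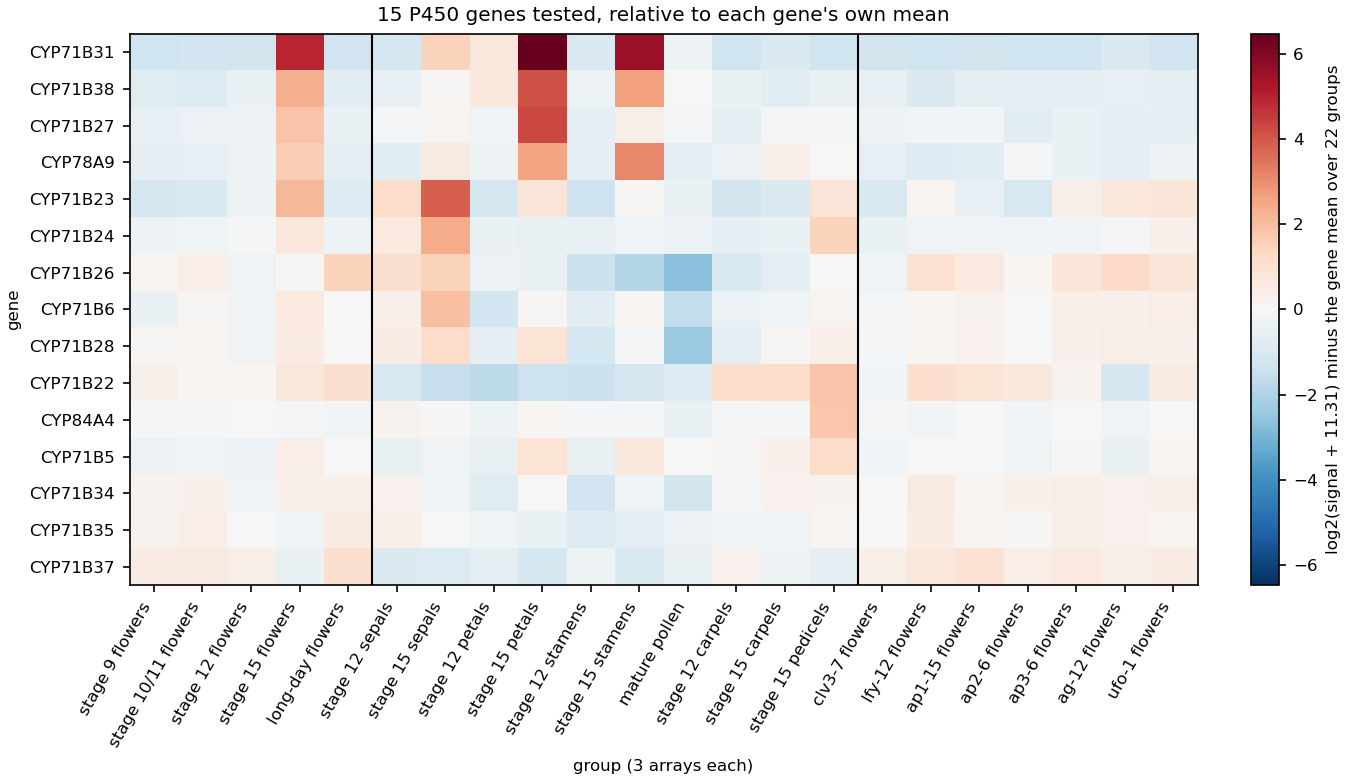
Level of the 15 tested P450 genes (rows) in the 22 groups (columns), as the group mean of log2(signal + 11.31) minus the gene's own mean over the groups. The deepest colour is CYP71B31 in stage 15 petals and stamens, the sepal genes CYP71B23, CYP71B24, CYP71B26, CYP71B6 and CYP71B28 form a block in the sepal columns, and pollen is pale or blue for most rows.

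CYP71B31, which together with CYP76C3 oxidises the scent alcohol linalool in Arabidopsis flowers, went from almost no signal to a very strong one as the flower opened. In stage 15 petals its 3 arrays read 2551, 2939 and 2203, against 38.1, 32.3 and 39.2 in stage 12 petals. In stage 15 stamens they read 1303, 1318 and 1544, and all stage 12 stamen arrays were at 5.91 or lower. The arrays of the 2 stages did not overlap in either organ. Stage 15 flowers gave 771, 930.0 and 869, stage 15 sepals 78.1, 74.2 and 59.7, and every array of the remaining 17 groups lay below the floor. The gene was thus on in petals and stamens, faint in sepals, and not detected in carpels or pedicels of the same flowers. On the scale of log2(signal + 11.31), used for all fold changes and understating those of dim genes, the rise was 5.74 (SE 0.14, adjusted p = 2.08e-40) in petals. Here and below, adjusted p-values are limma's with Benjamini-Hochberg adjustment over the 17646 probe sets tested, and a gene is called where the adjusted p is under 0.05 and the change at least 2-fold. In stamens the rise was 6.52 (SE 0.14, adjusted p = 9.16e-43), which is at least 61.2-fold over the floor, and in whole flowers 6.10, at least 37.8-fold. Between the organs of stage 15, petals exceeded stamens by 0.87 (SE 0.14, adjusted p = 3.62e-07), with arrays that did not overlap but under 2-fold. Petals exceeded carpels at least 112.6-fold.

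CYP71B38 had the same pair of organs. Its stage 15 petal arrays read 446, 455 and 495, its stage 15 stamen arrays 165, 160.1 and 150.4, and its stage 12 petal arrays 30.5, 33.2 and 35.5. Stage 12 stamens were below the floor, as were pedicels and, at both stages, sepals and carpels. The rise from stage 12 to 15 was 3.42 (SE 0.20, adjusted p = 1.24e-22) in petals and 3.04 (SE 0.20, adjusted p = 2.55e-20) in stamens, the latter at least 7.00-fold. Petals exceeded stamens at stage 15 by 1.49 (SE 0.20, adjusted p = 4.75e-09).

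CYP71B27 differed from these genes in its stamens. RefSeq lists it as a transcribed pseudogene. Its stage 15 petal arrays read 480.1, 451 and 483, whereas the stage 15 stamen arrays read 23.8, 16.3 and 22.4, around the floor. Whole stage 15 flowers gave 66.5, 76.4 and 84.3, and all arrays of the other 19 groups were below the floor. Among the dissected tissues the signal was thus high in open petals and nowhere else. The rise in petals was 4.58 (SE 0.17, adjusted p = 7.49e-32), at least 20.8-fold, and petals exceeded stamens by 3.92 (SE 0.17, adjusted p = 2.4e-28). Set as a share of the gene's own petal signal, the stage 15 stamen mean was 4.42% for CYP71B27, 34.0% for CYP71B38 and 54.1% for CYP71B31.

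CYP78A9, known for its effect on fruit and seed size and on carpel shape, leaned the other way, with a stamen mean of 154% of its petal mean. The stage 15 stamen arrays read 206, 241 and 206, the petal arrays 126, 161 and 137, and the sepal arrays 28.4, 23.5 and 31.4. Carpels of stage 15, at 20.7, 27.0 and 19.1, straddled the floor, and all stage 12 organs were below it. Opening was thus accompanied by a rise in stamens of 3.71 (SE 0.22, adjusted p = 1.38e-22), at least 9.61-fold. In petals the rise was 2.84 (SE 0.22, adjusted p = 9.2e-18), at least 6.21-fold. The stamen and petal arrays did not overlap, but their difference of 0.59 (SE 0.22, adjusted p = 0.0179) was under 2-fold.

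**Figure D2:**
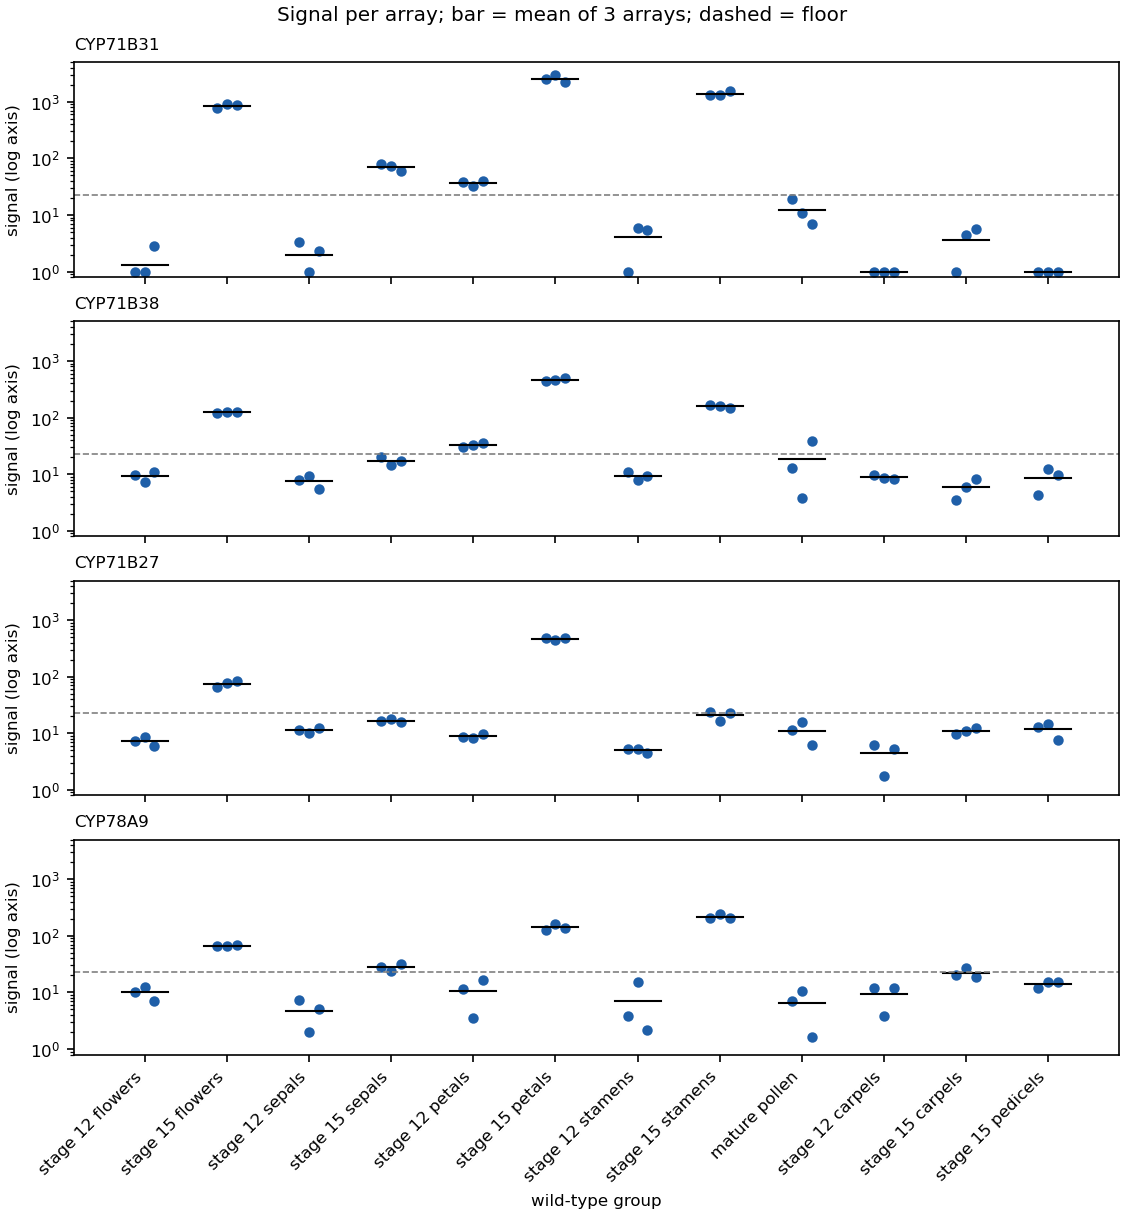
Signal per array (points, log axis, signals under 1 drawn at 1) of the genes that are brightest in open petals or stamens, in the wild-type groups given on the horizontal axis, with the mean of 3 arrays as a bar and the floor of 22.61 dashed. CYP71B31 and CYP71B38 stand high in both stage 15 petals and stamens, CYP71B27 in petals with stamens near the floor, and CYP78A9 slightly higher in stamens than in petals.

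Mature pollen itself gave low signals for these genes. CYP71B31 was below the floor in pollen, at 18.9, 10.9 and 6.84, and fell by 5.92 (SE 0.14, adjusted p = 6.49e-42) from stage 15 stamens to pollen. CYP78A9 was also below the floor there and fell by 3.72 (SE 0.22, adjusted p = 3.5e-23). CYP71B38 read 13.0, 3.86 and 38.3 on the pollen arrays, 1 of them above the floor, and fell by 2.69. CYP71B28 fell by 2.29 and CYP71B6 by 1.76, the latter remaining above the floor at 27.9 ± 3.79 (SD, n = 3). These 5 of the 15 tested genes were the only members called in this comparison, in which 30.5% of all tested probe sets were called lower and 18.8% higher. In stage 15 petals the pollen markers ATVEX1, ANX1 and MGH3 averaged 4.86, 3.80 and 9.88, below the floor. In stage 15 stamens they averaged only 34.8, 161 and 118. PLIM2a averaged 114 in petals, 114 in sepals and 2793 in stamens of stage 15, and CYP71B27, CYP71B31 and CYP78A9 were below the floor on every pollen array. How much pollen or stamen tissue the petal samples held was not tested.

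From stage 12 to stage 15 the called changes were all increases. Some of the genes called, CYP71B5, CYP71B24, CYP71B27 and CYP78A9, had no stage 12 group with all arrays above the floor. They passed the filter through other groups and had little room to be called lower. The counts below are therefore a description and no support for the family. In petals 8 members were called higher and 0 lower, while 11.6% of the 17646 tested probe sets were called higher and 13.7% lower. In stamens 6 members rose and 0 fell (12% of all tested rose and 12% fell), a count that was 10 without a pseudocount and 3 with a pseudocount as large as the floor. The petal and stamen counts both include CYP71B5, which lay below the floor at both stages in these organs. In sepals 5 rose and 0 fell (6.94% of all tested rose and 9.91% fell). In whole flowers 5 rose, CYP71B23, CYP71B27, CYP71B31, CYP71B38 and CYP78A9, where 7.54% of all tested probe sets rose and 4.69% fell. In carpels 0 were called by limma, with 8 at an unadjusted p under 0.05, where 3.33% of all tested were called higher and 1.21% lower. Here and below, the share of all probe sets at an unadjusted p under 0.05 was not computed. The unadjusted counts are thus no result about P450 genes. Without the filter on dim probe sets, the median change over all 22 members was 0.37 in petals, 0.22 in stamens, 0.08 in sepals and 0.15 in carpels on the log2 scale. The corresponding medians over all 22746 probe sets were -0.08, 0.03, -0.0026 and -0.02.

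The change from stage 12 to 15 differed between the 4 organs for 12 of the 15 tested genes at an adjusted p under 0.05 (moderated F test in limma), where 83.4% of all tested probe sets did so. The exceptions were CYP71B35, CYP71B37 and CYP84A4. For CYP71B27 the change was 4.58 in petals and 0.31 in sepals (adjusted p = 1.37e-24). For CYP71B24 it was 1.82 in sepals and -0.07 in petals (adjusted p = 4.11e-10). The members' share is close to that of all tested probe sets and is no result about P450 genes.

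The sepal genes rose to different extents as the flower opened. CYP71B23 read 70.3, 71.0 and 51.4 in stage 12 sepals and 514, 440.4 and 442 in stage 15 sepals, an increase of 2.67 (SE 0.15, adjusted p = 2.21e-22). Stage 15 petals averaged 44.6 ± 7.63 (SD, n = 3), stage 15 stamens 23.0 ± 2.18 and pedicels 47.6 ± 4.54, and carpels were below the floor at both stages. Sepals were thus well above every other organ, exceeding petals by 3.10 (SE 0.15, adjusted p = 1.89e-25) at stage 15.

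CYP71B24, which has 1 gene between itself and CYP71B23 in the TAIR10.1 gene order, was dimmer with a similar distribution. Its sepal arrays read 23.1, 21.5 and 17.6 at stage 12 and 132, 83.5 and 94.3 at stage 15, an increase of 1.82 (SE 0.17, adjusted p = 4.94e-14). Pedicels read 42.8, 38.2 and 61.1, and petals, stamens and carpels were below the floor at both stages. Apart from sepals, pedicels were the only dissected tissue in which this gene was detected.

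CYP71B6, whose enzyme metabolises indole-3-acetonitrile, was the only member above the floor on all 66 arrays. Its sepal arrays read 143, 142 and 126 at stage 12 and 457, 443 and 468 at stage 15, an increase of 1.66 (SE 0.08, adjusted p = 2.21e-26). Stage 15 petals, stamens, carpels and pedicels lay between 91.6 and 122 on average, so sepals exceeded each of them, the nearest among the floral organs being stamens by 1.82 on the log2 scale. Its petal signal also rose, from 39.9 ± 3.87 to 114 ± 2.61 (SD, n = 3), by 1.30 (SE 0.08, adjusted p = 4.98e-22).

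CYP71B26 was already bright in stage 12 sepals, at 221 ± 8.13 (SD, n = 3), and averaged 306 ± 11.0 at stage 15. The difference of 0.45 (SE 0.10, adjusted p = 7.71e-05) is under 2-fold, though the arrays do not overlap. Petals gave 75.9 and 70.5 at the 2 stages, carpels 46.2 and 61.7, and stamens 33.2 at stage 12 and values below the floor at stage 15. Pedicels averaged 101 ± 11.7 at stage 15, above petals. Sepals thus led at both stages, exceeding petals, the nearest floral organ, by 1.42 on the log2 scale at stage 12 and by 1.96 at stage 15.

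CYP71B28 was above the floor in all floral organs and the pedicels of the open flower, with its highest means in sepals and petals. Its sepals averaged 95.4 ± 5.84 at stage 12 and 162 ± 31.8 (SD, n = 3) at stage 15, where 1 array at 199 stands above the others at 144 and 144. Its petals went from 38.4 ± 0.880 to 130 ± 17.0, an increase of 1.5 (SE 0.12, adjusted p = 1.95e-17). At stage 15 sepals and petals differed by 0.29 (SE 0.12, adjusted p = 0.0322), less than 2-fold, with arrays that did not overlap. Pedicels averaged 84.2, carpels 68.8 and stamens 57.9.

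Counting organ by organ, a gene was taken as enriched where it was called higher than in each of the other floral organs of its stage. At stage 12 sepals had 4 enriched members (CYP71B23, CYP71B24, CYP71B26 and CYP71B28), where 6.79% of all tested probe sets were enriched. With a pseudocount as large as the floor the count was 2. The mean of CYP71B24 in stage 12 sepals, 20.7, was itself under the floor. Petals had 2 (CYP71B31 and CYP71B38, background 1.67%), carpels 1 (CYP71B22, background 5.07%) and stamens 0 (background 9.58%). At stage 15 sepals again had 4, with CYP71B6 in place of CYP71B28 (background 5.21%). Petals had 2, CYP71B27 and CYP71B38 (background 1.29%). CYP71B31 left the petal list because its stamens came within 2-fold of its petals. Carpels had 1, CYP71B22, where 14.5% of all tested probe sets were enriched, and stamens had 0, where 4.89% were. Pedicels, set against each of the 4 floral organs, had 1, CYP84A4 (background 2.5%). This gene passed the filter only through pedicels, so its enrichment there is a description and no support for the family.

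**Figure D3:**
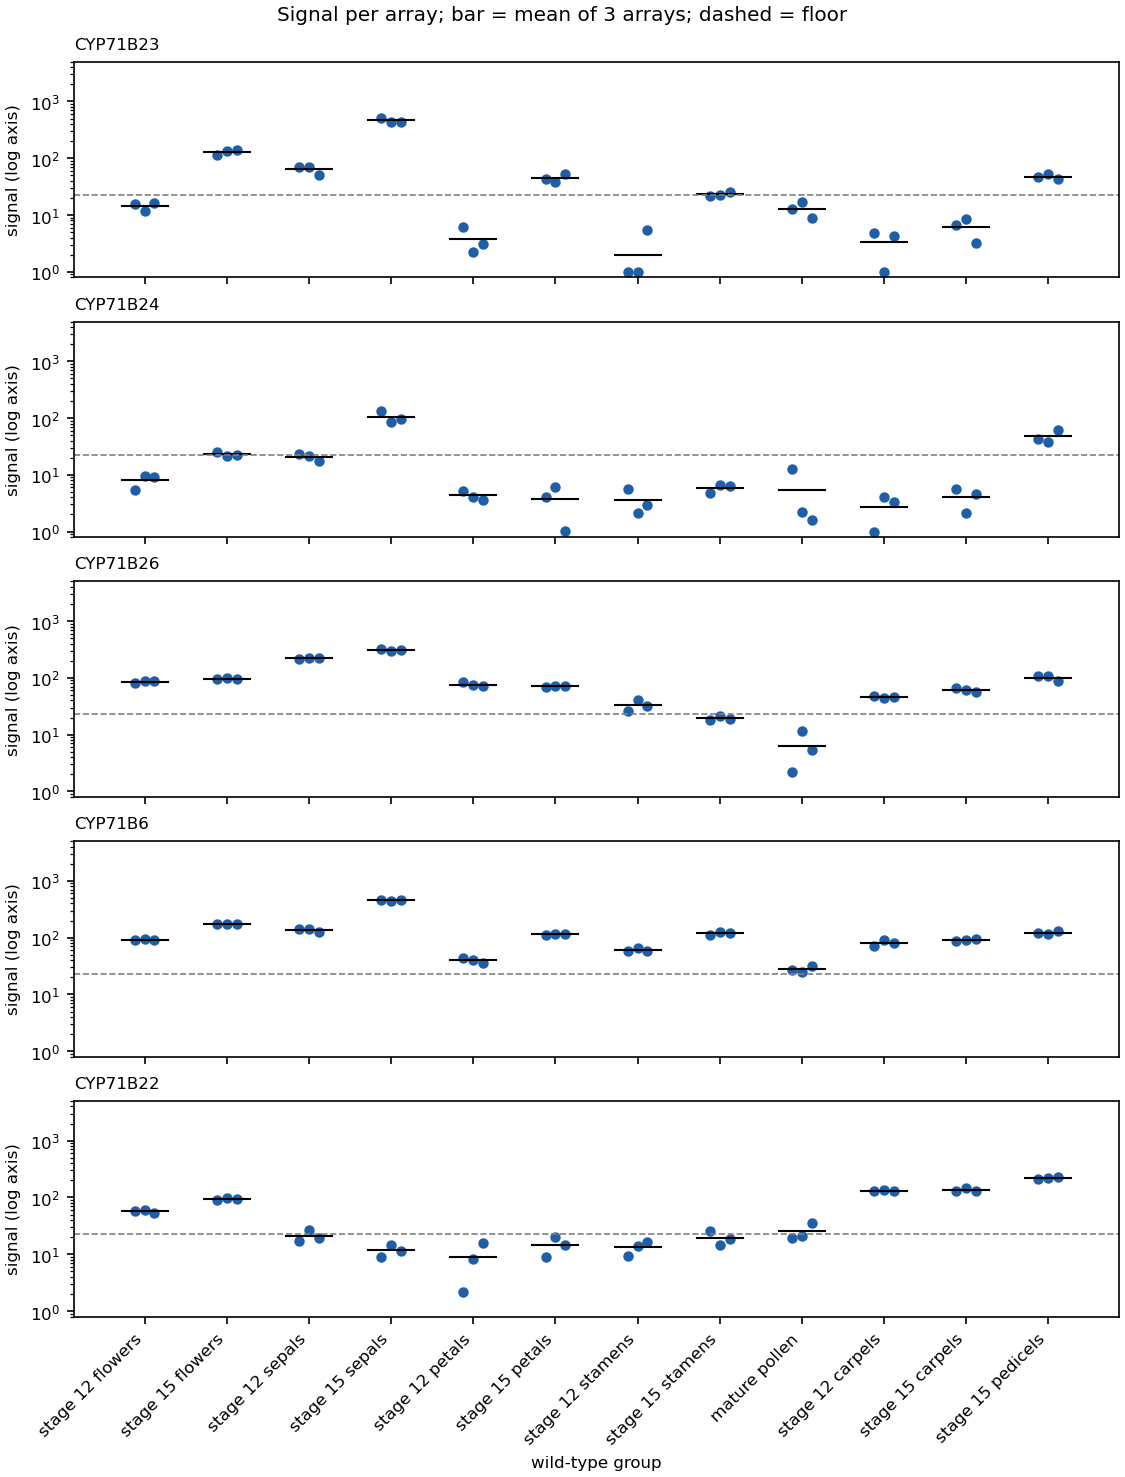
Signal per array (points, log axis, signals under 1 drawn at 1) of CYP71B23, CYP71B24, CYP71B26, CYP71B6 and CYP71B22 in the wild-type groups given on the horizontal axis, with the mean of 3 arrays as a bar and the floor of 22.61 dashed. The first 4 genes peak in stage 15 sepals, whereas CYP71B22 is at or below the floor in sepals, petals and stamens and is high in carpels and highest in pedicels.

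CYP71B22 was the carpel and pedicel gene of the set. Its carpel arrays read 131, 133 and 129 at stage 12 and 129, 148 and 132 at stage 15, a difference of 0.05 (SE 0.15, adjusted p = 0.84) within the spread of the arrays. Pedicels read 214, 222 and 227, above carpels by 0.65 (SE 0.15, adjusted p = 0.000145), which is under 2-fold. In sepals, petals and stamens 2 of 18 arrays exceeded the floor, at 26.6 and 25.3. At stage 12 carpels exceeded the nearest organ, sepals, by 2.15 on the log2 scale.

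CYP84A4, an enzyme of arabidopyrone biosynthesis related to ferulate 5-hydroxylase, was above the floor in pedicels alone, at 52.9, 63.4 and 59.0. Its brightest array in any other group read 15.0. Pedicels exceeded each of the 4 floral organs of stage 15 at least 2.58-fold. CYP71B5 was also above the floor in pedicels alone. The test called it higher in stage 15 than in stage 12 petals and stamens, but both stages lie below the floor there, so no fold is given.

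CYP71B34, CYP71B35 and CYP71B37 were dim and spread over many groups. CYP71B34 averaged 54.5 ± 2.03 (SD, n = 3) in stage 15 carpels, 54.2 ± 5.28 in stage 12 sepals and 53.2 ± 7.27 in pedicels, which the arrays do not separate. It was below the floor in stage 12 petals and stamens and in pollen. CYP71B35 averaged 28.1 ± 2.03 in stage 12 sepals and 24.8 ± 9.09 in pedicels, and was below the floor in petals, stamens and carpels at both stages. CYP71B37 averaged 21.6 ± 4.35 in stage 12 carpels, with 1 array above the floor, and no array above it in the other organs except 1 of pollen at 24.7. Whole stage 9 flowers gave 24.8 ± 3.70 for CYP71B35 and 27.8 ± 1.93 for CYP71B37, both just above the floor.

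Before stage 12 little moved. From stage 9 to stage 10/11, 0 members were called by limma, with 2 at an unadjusted p under 0.05, where 2.01% of all tested probe sets were called higher and 1.14% lower. From stage 10/11 to stage 12, 0 were called, with 7 at an unadjusted p under 0.05, where 4.9% of all tested were called higher and 1.37% lower. The unadjusted counts again have no share of all probe sets beside them. CYP71B26 averaged 113, 144 and 85.4 at stages 9, 10/11 and 12, and the last step of -0.69 (SE 0.10, adjusted p = 6.43e-08) was under 2-fold. The arrays of stages 9 and 10/11 carry another set of replicate names than those of stage 12, so this difference in naming and the last step cannot be told apart.

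Among the mutants, CYP71B26 was the member called most often. Wild-type stage 12 flowers read 82.7, 87.4 and 86.2. The ag-12 arrays read 261, 252 and 264, an increase of 1.48 (SE 0.10, adjusted p = 1.9e-19), and the lfy-12 arrays 223, 212 and 218, an increase of 1.24 (SE 0.10, adjusted p = 2e-16). The ufo-1 arrays read 197, 188 and 183, an increase of 1.05 (SE 0.10, adjusted p = 2.13e-13). The ap3-6 arrays read 176, 194 and 186, an increase of 1.02 (SE 0.10, adjusted p = 3.52e-13). The ufo-1 and ap3-6 increases lie near the 2-fold limit and were not called when each array was divided by its 75th percentile, at 0.99 and 0.96. Without ap3-6 array B the ap3-6 change was 0.99 and not called. In ap1-15 the mean was 169 ± 11.2 and the difference of 0.90 (SE 0.10, adjusted p = 3.65e-11) was under 2-fold. In ap2-6 and clv3-7 the means were 113 and 87.8.

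Of the other genes brightest in stage 15 sepals, CYP71B23 was called in 1 mutant. It was below the floor in wild-type stage 12 flowers (15.4, 11.9 and 16.2). In ufo-1 it read 44.3, 40.9 and 52.7, an increase of 1.15 (SE 0.15, adjusted p = 1.42e-08) and at least 2.02-fold, which was 0.88 and not called with a pseudocount as large as the floor. In ag-12 the difference of 0.999 (SE 0.15, adjusted p = 3.09e-07) was just under 2-fold. CYP71B6, CYP71B24 and CYP71B28 were called in no mutant. CYP71B6, for example, differed by 0.64 (SE 0.08, adjusted p = 1.04e-09) in ufo-1.

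CYP71B22, brightest in pedicels and, among the floral organs, in carpels, was below the floor in ag-12, whose flowers have no carpels. The ag-12 arrays read 20.4, 17.2 and 18.7, against 58.1, 59.1 and 54.0 in wild-type stage 12 flowers, so that the wild type was at least 2.52-fold higher. The difference was -1.18 (SE 0.15, adjusted p = 1.75e-09), and -0.94 and no longer called with a pseudocount as large as the floor. In ap3-6, which keeps its carpels, the arrays read 64.2, 59.7 and 68.2, and ag-12 lay below them by 1.32 on the log2 scale (SE 0.15, adjusted p = 1.45e-10). In lfy-12 the gene read 143, 117 and 114, and the difference of 0.99 from the wild type (SE 0.15, adjusted p = 1.26e-07) stayed under 2-fold. The carpel marker CES averaged 191 in wild-type flowers, 370 in ap3-6, 19.0 in ag-12 and 14.8 in lfy-12. The carpel marker INO averaged 72.9, 125, 17.3 and 14.3 in the same order and SPT 54.8, 126, 54.0 and 86.1, while BAN was below the floor in all 4 groups. The lfy-12 signal of CYP71B22 thus went with low CES and INO, and the part of carpel tissue in these values was not tested.

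**Figure D4:**
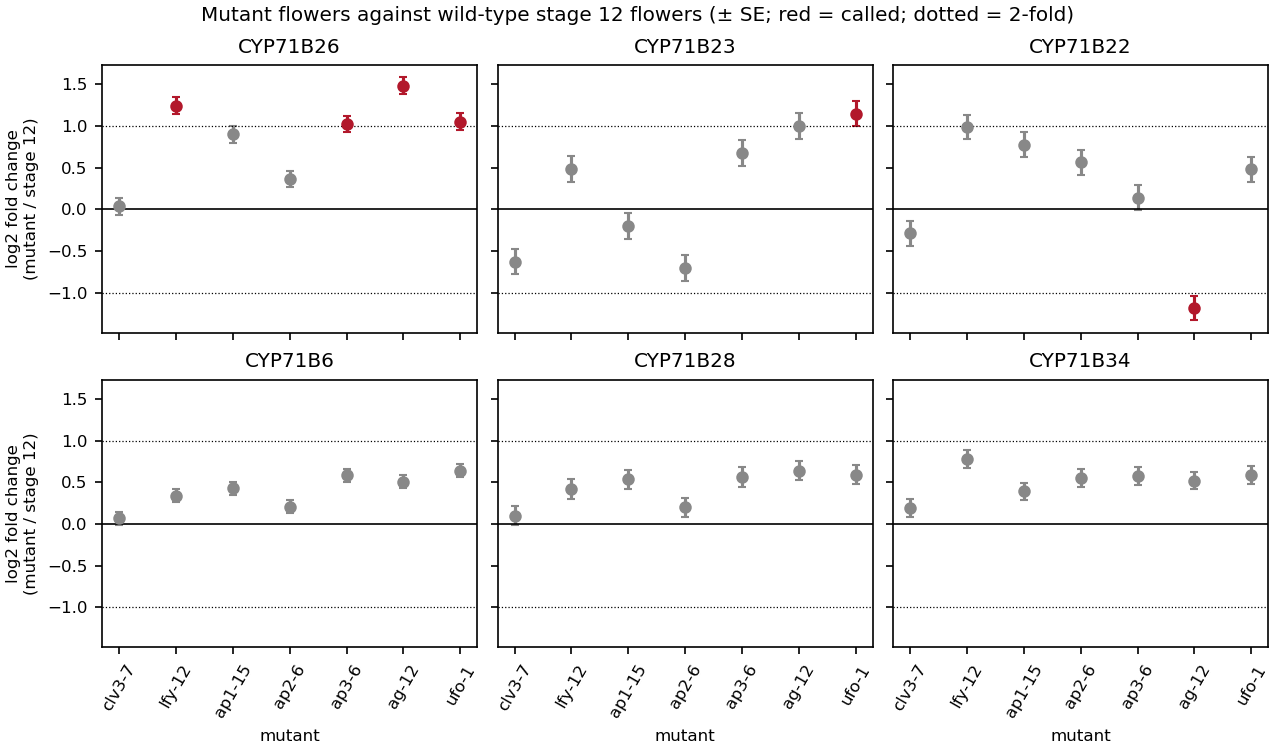
Log2 fold change of 6 genes in each mutant against wild-type stage 12 flowers (points, bars are ± SE, called changes in red, dotted lines at 2-fold). CYP71B26 is called in lfy-12, ap3-6, ag-12 and ufo-1, CYP71B23 in ufo-1, and CYP71B22 lies below the lower line in ag-12.

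Counted over the 15 tested members, lfy-12 had 1 called higher and 0 lower, where 2.45% of all tested probe sets were called higher and 7.35% lower. The flowers of ap3-6 had 1 higher and 0 lower (background 1.11% and 6.21%). Those of ag-12 had 1 higher and 1 lower (background 1.05% and 6.02%), and ufo-1 had 2 higher and 0 lower (background 0.844% and 4.24%). Against ap3-6, ag-12 had 0 higher and 1 lower (background 1.46% and 1.65%). In clv3-7 limma called 0 members, with 1 at an unadjusted p under 0.05 (background 0.425% higher and 0.272% lower). In ap1-15 it called 0, with 7 at an unadjusted p under 0.05 (background 2.06% and 3.51%), and in ap2-6 0, with 6 (background 1.46% and 4.97%). The count in lfy-12 was 5 without a pseudocount, and 2 with quantile normalization or without stage 12 flowers B, lfy-12 B or lfy-12 C. With a pseudocount as large as the floor the count was 0 in ufo-1 and ap3-6 and 1 in ag-12. Division by the 75th percentile gave 1 in ufo-1 and 0 in ap3-6, and ap3-6 also had 0 without its array B. Without a pseudocount ap3-6 and ap2-6 had 2 each and ag-12 against ap3-6 had 3. With 15 genes these counts are too small to be set apart from the background, and for the unadjusted counts no background was computed. The genes of open petals and stamens, CYP71B27, CYP71B31, CYP71B38 and CYP78A9, were below the floor on every array of all 7 mutants and of wild-type stage 12 flowers, so at this stage nothing could be seen of them in whole flowers.

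Most of the CYP71B members lie in runs of neighbouring genes. In the TAIR10.1 gene order, 18 CYP71B genes from CYP71B16 to CYP71B37 follow each other on chromosome 3 with 7 other genes between them, and 11 of these are members, 7 of them tested. A further run of 5 from CYP71B27 to CYP71B7 lies on chromosome 1, with 3 members. A run of 4 from CYP71B5 to CYP71B32 lies elsewhere on chromosome 3, with 2. CYP71B6 on chromosome 2 and CYP71B38 on chromosome 3 stand alone. The organ of highest signal was not the same throughout any run. On chromosome 3, CYP71B22 (pedicels and carpels) lies directly beside CYP71B23 (sepals), and CYP71B5 (pedicels) is 3 genes away from CYP71B31 (petals). On chromosome 1, CYP71B27 (petals alone) is 2 genes away from CYP71B28 (sepals and petals).

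Likeness between neighbours varied and did not follow the organ of highest signal alone. As a description over the 22 group means on the log2 scale, whose groups share tissues, the Pearson correlation was 0.86 for CYP71B23 and CYP71B24 and 0.76 for CYP71B34 and CYP71B35. For CYP71B24 and CYP71B26, both brightest in stage 15 sepals but with 8 genes between them, it was 0.41. For CYP71B26 and CYP71B34 it was 0.71. The Spearman correlations of these 2 pairs were closer, at 0.64 and 0.61. The Pearson correlation was 0.63 for CYP71B35 and CYP71B37, 0.35 for CYP71B27 and CYP71B28, and -0.20 for CYP71B22 and CYP71B23. For CYP71B5 and CYP71B31 the Pearson correlation of 0.53 came with a Spearman correlation of 0.05. Close relatives in such runs can bind the same probes. Of the CYP71B genes in the chromosome 3 run, CYP71B19 and CYP71B20 share a probe set in the annotation and are left out for that reason.

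**Figure D5:**
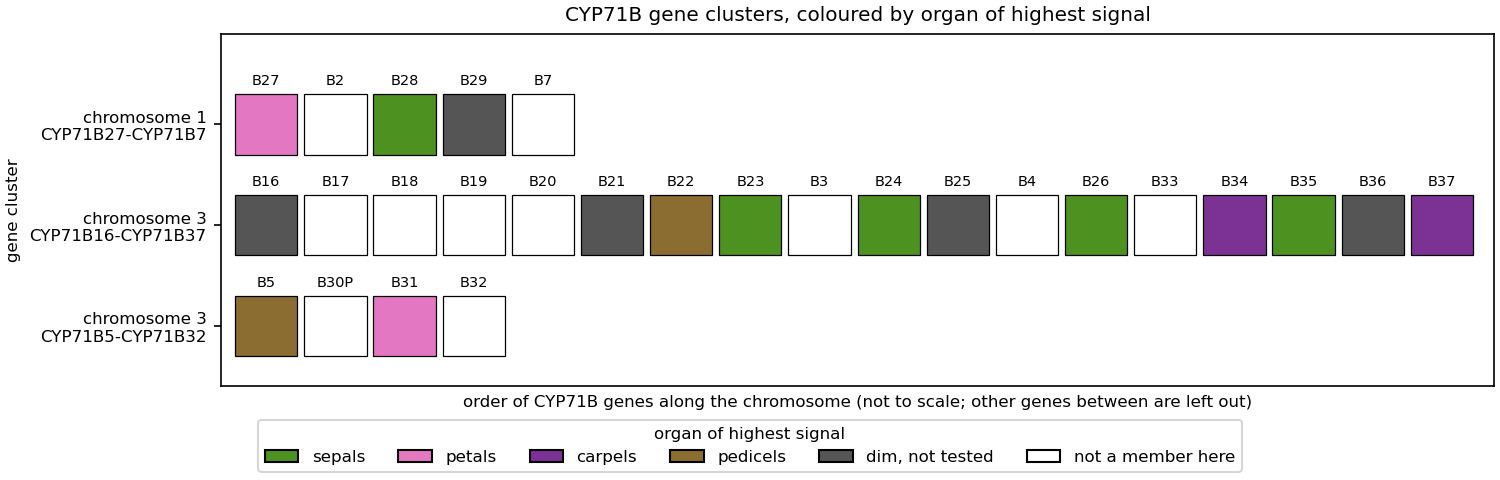
Order of the CYP71B genes in the 3 runs (horizontal axis, not to scale, other genes left out), coloured by the dissected tissue in which each tested member was brightest. Colours change along the runs, while CYP71B23, CYP71B24 and CYP71B26 all have the sepal colour. The colours of CYP71B34 and CYP71B35 rest on tissues whose arrays overlap, and that of CYP71B37 on a mean under the floor.

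Of the enzymes that act before, after or beside P450s, few have a single-gene probe set. The lists of floral terpenes, triterpenes, carotenoids, glucosinolates, phenylpropanoids, sterols, pollen wall, cuticle, oxylipins, hormone metabolism, organ growth and electron donors name 178 other genes. Of these, 15 had such a probe set and 14 were tested, and of the 93 P450s in the lists only 4 are members. The linalool synthases that supply the substrate of CYP71B31 and the P450 reductases are not among the 15. From stage 12 to 15, petals had 1 of the 14 called higher and 3 lower. The one that rose was LYC, lycopene cyclase, by 1.11 (SE 0.09, adjusted p = 6.19e-16). GSTU20, a glutathione transferase co-expressed with glucosinolate genes, fell by 4.02 and CHIL, a chalcone isomerase-like protein of flavonoid synthesis, by 4.12. CPI1, cyclopropyl isomerase of sterol synthesis, fell by 2.49. The other 10 were not called in petals.

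In sepals 3 of the 14 rose and 2 fell. BCAT4, the first enzyme of methionine-derived glucosinolate synthesis, rose by 1.80 (SE 0.13, adjusted p = 7.25e-18), and DFR, dihydroflavonol reductase, was at least 3.48-fold higher, its stage 12 sepals being below the floor (adjusted p = 5.54e-16). AOP3 was below the floor in stage 12 sepals and averaged 23.9, just above it, at stage 15. GSTU20 fell by 1.14 and CHIL by 2.48. In stamens LYC rose by 1.04 and 5 fell, of which CHIL fell by 2.42. GSTU20 and BCAT4 were below the floor in stage 15 stamens, so that stage 12 stamens were at least 23.8-fold and 5.39-fold higher. In carpels DFR, below the floor at stage 12, was at least 7.53-fold higher at stage 15 (adjusted p = 3.22e-23) and GSTU20 fell by 1.35. The lists are too thinly covered to describe a pathway as a whole.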

How the data were processed

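RNA was measured on 66 one-colour ATH1 arrays. The authors deposited linear signal intensities from MAS5, per the submitters' processing notes, which give no version. With 2% trimmed, array means ran from 100.01 to 100.02, and this scaling was kept. Identical arrays were looked for and 0 pairs found. With 3 arrays per group, precision is limited.

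Of 22810 probe sets, 64 are controls, which were set aside, and 5100 were too dim: they had no group with all 3 arrays over the floor of 22.61 (the 40th percentile of all values). The other 17646 were tested. Log2(signal + 11.31), the pseudocount being 0.5 of the floor, entered limma 3.58.1 (R 4.3.3), which estimated a mean for each of the 22 groups from all arrays together, with a trended eBayes step. To be called, a probe set had to change by 2-fold or more with an adjusted p under 0.05 (Benjamini-Hochberg, each comparison on its own). "At least" folds set the brighter group's geometric mean against the floor where all arrays of the other group lie below it. The F test compares the stage 12 to 15 changes of petals, stamens and carpels with that of sepals. The procedure was tested on simulated data.

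Of the probe sets, 13513 pair with 1 gene in the annotation, 503 with several and 8730 with none. Names, gene types and gene order come from RefSeq (TAIR10.1). Genes to name were the largest called changes per comparison, the enriched genes, the leading gene of a clan, members of the role lists and neighbours, but here every member is described. Members, lists and comparisons were chosen with earlier results of these data known. A gene named CHI was dropped from the flavonoid list after the files were read, since the symbol belongs to a chitinase. Long-day flowers entered no test, since they differ in photoperiod, in temperature and possibly in stage. Alternatives were no filter on dim probe sets, no pseudocount, a pseudocount as large as the floor, quantile normalization, division by the 75th percentile, the arrays of the compared groups alone, robust eBayes, the replicate letter as a block and each array left out in turn.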

Additional observations from a re-analysis of the deposited data

Results flagged for a closer look

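For 12 members the change from stage 12 to stage 15 differed between sepals, petals, stamens and carpels (moderated F test in limma, adjusted over 17646 probe sets, of which 83.4% passed). The adjusted p was 1.42e-35 for CYP71B31, 1.37e-24 for CYP71B27, 2.89e-19 for CYP71B38 and 1.45e-17 for CYP71B6. It was 8.60e-14 for CYP71B23, 2.41e-13 for CYP78A9 and 3.30e-13 for CYP71B34. For the rest it was 4.11e-10 for CYP71B24, 1.26e-08 for CYP71B26, 4.40e-06 for CYP71B5, 1.33e-05 for CYP71B28 and 0.000669 for CYP71B22. CYP71B34 was 0.53 lower on the log2 scale in stage 15 than in stage 12 sepals and 0.95 higher in stage 15 than in stage 12 stamens, neither 2-fold. CYP71B22 lay close to or below the floor in sepals and petals of both stages, so no change is given.

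Flowers of ag-12 and ap3-6 differed in CYP71B22, with a log2 difference of -1.32.

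The probe set that CYP71B19 and CYP71B20 share, which no comparison here uses, had a bright signal. It averaged 730 ± 24.8 (SD, n = 3) in stage 15 sepals, 692 ± 42.1 in stage 15 petals, 325 ± 6.04 in stage 15 stamens and 183 ± 5.30 in stage 15 carpels. At stage 12 it averaged 308 ± 16.4 in sepals, 118 ± 5.09 in petals and 20.5 ± 2.38 in stamens.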

How the results depend on the processing

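Each of the 26 counts of called or enriched members, and each of 36 called changes of single members, was recomputed under the alternatives. No called change turned its sign. Without a filter, with the arrays of the compared groups alone and with robust eBayes, all 26 counts stayed within 1.5 times and all 36 calls held. Without a pseudocount, which gives dim genes larger changes, all 36 calls held and 9 counts moved. They were 5 in lfy-12, 2 in ap2-6, 2 in ap3-6, 3 between ag-12 and ap3-6, 10 in stamens from stage 12 to 15, 1 in carpels from stage 12 to 15, 8 in pollen, and 2 enriched in carpels at either stage. With a pseudocount equal to the floor 9 of the 36 calls were lost, and the counts were 0 in ap3-6, 1 in ag-12, 0 in ufo-1, 3 in stamens from stage 12 to 15, 2 enriched in stage 12 sepals and 1 in stage 12 petals. The lost calls were CYP71B26 in ap3-6 and ufo-1, CYP71B22 in ag-12, CYP71B23 in ufo-1, CYP78A9 in sepals, CYP71B5 in petals, and CYP71B23, CYP71B28 and CYP71B5 in stamens. Quantile normalization gave 2 calls in lfy-12, and division by the 75th percentile gave 0 in ap3-6 and 1 in ufo-1. These scalings moved the median of all probe sets by 0.29 and 0.67 between pollen and stage 15 stamens, where the members called higher and lower went from 0 and 5 to 1 and 6 and to 1 and 5. Leaving out each array in turn gave 1 to 2 calls in lfy-12 (2 without stage 12 flowers B, lfy-12 B or lfy-12 C) and 0 to 1 in ap3-6 (0 without ap3-6 B). The call of CYP71B28 in stamens was lost without stage 12 stamens C or stage 15 stamens C. Other causes of these moves were not tested. Samples with the same replicate letter did not deviate together, since in 0 of 16 comparisons did all pairs correlate above 0.1, the values lying between -0.14 and 0.12. The replicate block gave the same 26 counts, for example 8 in petals and 6 in stamens from stage 12 to 15, and kept all 36 calls. Precision is limited by 3 arrays per group, and values near the floor of 22.61 carry little information.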

Other observations

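Long-day flowers stand in no comparison. In them CYP71B26 averaged 297 ± 16.0 (SD, n = 3), close to the 306 ± 11.0 of stage 15 sepals and above the range of 85.4 to 144 of the whole wild-type flowers grown in continuous light. CYP71B22 averaged 121 ± 12.5, CYP71B37 42.9 ± 4.10 and CYP71B35 33.5 ± 1.21, the last 2 being the highest group means of these genes. CYP71B23, CYP71B24, CYP71B27, CYP71B31, CYP71B38 and CYP78A9 were below the floor on all long-day arrays. Photoperiod and temperature, and possibly stage, differ together between these samples and the others and cannot be told apart.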
